A study of Mus musculus with 3 samples.

Results

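The genes described here encode the proteins of the cytosolic ribosome. They were taken as the autosomal protein-coding genes of the mouse RefSeq table whose symbol is Rpl or Rps followed by digits and at most an ending a, x, l or l1, together with Rplp0 to Rplp2 and Rpsa. This gave 79 of 20665 autosomal protein-coding genes, of which 46 encode large-subunit proteins or their paralogs, 30 encode small-subunit proteins or their paralogs and 3 encode proteins of the ribosomal stalk. Kinase genes of the Rps6k family and the mitochondrial ribosomal protein genes were not members, and 4 matching genes on the X chromosome were set aside by the rule. DNA methylation in epididymal fat, the fat pad beside the epididymis, had been mapped by immunoprecipitation of methylated DNA and sequencing (MeDIP-seq). The animals were C57BL/6J males whose diets began at 6 weeks of age and ran for 10 weeks, to an age of 16 weeks. The normal diet (ND) had 10% of its energy from fat, the high-fat diet (HFD) had 60%, and the third group (FAD) received that same high-fat food plus drinking water holding 20 μg/mL of folic acid. Each diet had a single library, so a difference between diets is a difference between libraries, without a replicate check and without a test. The labels used here do not say how many animals a library holds.

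In MeDIP-seq an antibody against methylated cytosine enriches methylated DNA fragments, and places where such fragments pile up are called as peaks. Ribosomal protein genes are transcribed in every growing cell from short, compact promoters that are usually CpG islands, stretches rich in CG dinucleotides that mostly stay free of methylation in somatic tissue. Many start transcription at a C within a run of pyrimidines, the terminal oligopyrimidine tract through which mTOR signalling controls their translation. The family has also left many processed pseudogenes in the mouse genome, and a few members are retrogenes or paralogs used mainly in testis or muscle.

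Because the finding turned on which promoters carried a peak, 5 promoters are shown first. Each line gives 250 bases before and 50 bases after the listed start of transcription, in the direction of transcription, from RefSeq on build GRCm38.p6, with every CG dinucleotide in capitals. The first 3 had a peak over the promoter shown in all 3 libraries, although another listed start of Rpl22 had no peak over its promoter. Rpl10l (chr12:66284352-66284651, minus strand, 13 CG) is the testis-expressed retrogene of the X-linked Rpl10, Rpl39l (chr16:10169978-10170277, plus strand, 17 CG) is the testis-expressed paralog of the X-linked Rpl39, and Rpl22 (chr4:152324186-152324485, plus strand, 8 CG) encodes an RNA-binding protein of the large subunit. Rpl27a (chr7:109518945-109519244, plus strand, 31 CG), a large-subunit gene, was the member whose start lay farthest from any peak. Rps6 (chr4:86857318-86857617, minus strand, 23 CG), whose product is phosphorylated by S6 kinase, had no peak over the promoter but one upstream in ND.
Rpl10l: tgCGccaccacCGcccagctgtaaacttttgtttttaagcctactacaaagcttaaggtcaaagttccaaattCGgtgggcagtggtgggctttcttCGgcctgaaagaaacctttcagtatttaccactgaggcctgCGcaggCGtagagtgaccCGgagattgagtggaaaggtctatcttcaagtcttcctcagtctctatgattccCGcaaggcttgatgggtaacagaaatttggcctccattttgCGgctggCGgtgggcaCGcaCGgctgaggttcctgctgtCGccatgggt
Rpl39l: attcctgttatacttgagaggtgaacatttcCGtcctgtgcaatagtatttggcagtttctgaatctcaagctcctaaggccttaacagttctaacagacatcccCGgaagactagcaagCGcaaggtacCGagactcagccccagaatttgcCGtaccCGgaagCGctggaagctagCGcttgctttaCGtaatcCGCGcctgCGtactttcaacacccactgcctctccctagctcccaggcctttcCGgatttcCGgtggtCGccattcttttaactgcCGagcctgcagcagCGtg
Rpl22: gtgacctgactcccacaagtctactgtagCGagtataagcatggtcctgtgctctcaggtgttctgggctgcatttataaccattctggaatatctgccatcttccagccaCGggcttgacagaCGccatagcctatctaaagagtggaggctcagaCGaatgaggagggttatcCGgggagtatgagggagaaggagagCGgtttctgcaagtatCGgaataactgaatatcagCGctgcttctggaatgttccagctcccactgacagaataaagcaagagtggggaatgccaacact
Rpl27a: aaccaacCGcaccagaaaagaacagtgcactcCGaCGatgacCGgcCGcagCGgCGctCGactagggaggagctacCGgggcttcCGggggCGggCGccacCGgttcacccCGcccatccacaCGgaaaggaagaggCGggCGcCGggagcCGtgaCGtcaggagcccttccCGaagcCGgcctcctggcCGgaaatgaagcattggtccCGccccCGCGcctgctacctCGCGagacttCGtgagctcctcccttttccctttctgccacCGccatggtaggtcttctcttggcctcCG
Rps6: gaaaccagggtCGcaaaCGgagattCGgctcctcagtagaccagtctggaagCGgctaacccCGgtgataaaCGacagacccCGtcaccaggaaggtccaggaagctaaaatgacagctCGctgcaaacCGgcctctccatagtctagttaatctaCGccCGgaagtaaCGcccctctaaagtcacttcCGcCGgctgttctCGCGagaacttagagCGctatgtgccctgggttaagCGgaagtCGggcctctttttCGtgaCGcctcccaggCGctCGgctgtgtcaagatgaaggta

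A gene was counted as marked at an end when a peak overlapped, by at least 1 bp, a window from 2000 bp outside to 500 bp inside either end of its record. In ND 32 members (40.5%) were marked at an end, beside 23.2% of all autosomal protein-coding genes. In HFD 39 members (49.4%) were marked, beside 31.4% of all genes, and in FAD 23 members (29.1%), beside 20.4%. When each list was held to its 95501 highest-scoring peaks, the length of the FAD list, the counts were 32, 28 and 23, beside 21.9%, 23.7% and 20.4% of all genes, which turned the order of HFD and ND. These counts went against a description of the family as an unmethylated reference at the gene ends, since the members' share was above the share of all genes in each of the 3 libraries. Member records are short, with a median length of 3183 bp beside 17491 bp for all genes. Among the 8163 genes no longer than the longest member (11774 bp, Rps15a), the shares marked at an end were 23.8%, 30.8% and 20.6% in ND, HFD and FAD.

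Large-subunit genes were marked at an end in 21, 24 and 14 of 46 cases in ND, HFD and FAD, and small-subunit genes in 10, 14 and 8 of 30. Of the 3 stalk genes only Rplp0 was marked, in all 3 libraries. Without the 6 paralogs Rpl3l, Rpl7l1, Rpl10l, Rpl22l1, Rpl39l and Rps27l, the counts were 29, 35 and 21 of 73. Rpl32l, which was marked at an end in all 3 libraries, was kept among the 73.

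Other genes of protein synthesis gave the setting. Of 78 genes for mitochondrial ribosomal proteins, which build the separate ribosome of that organelle, 22, 30 and 23 were marked at an end in ND, HFD and FAD (28.2%, 38.5% and 29.5%). Genes of ribosome assembly and RNA polymerase I were marked in 12, 15 and 9 of 38 cases, and translation factor genes in 7, 10 and 3 of 46. A list of 40 germline genes, whose promoters are usually methylated outside the germ line, was marked in 28, 32 and 24 cases. The ribosomal protein genes thus lay between the translation factors and the germline genes in every library.

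**Figure D1:**
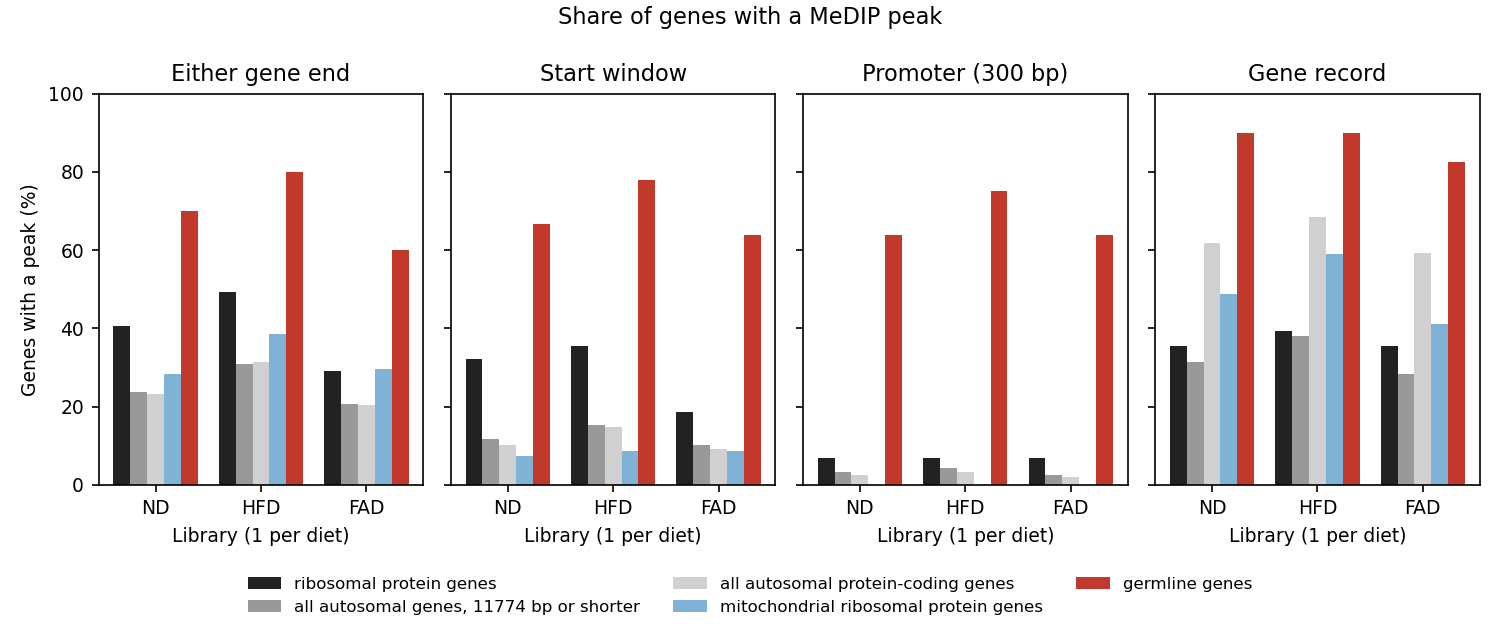
Percent of genes (vertical axes, 0 to 100%) with a MeDIP peak at either gene end, in the window at the start, over the 300 bp promoter and in the gene record, for the ND, HFD and FAD libraries. Bars are 1 library each and have no error bar. Ribosomal protein genes stand at 40.5%, 49.4% and 29.1% at the gene ends and at 6.78% over the promoter in each library, and germline genes are the tallest bars in every panel.

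Where the peaks lay relative to the start could be given for 59 members with an entry in the RefSeq promoter table. The 20 others included Rpl3, Rpl7, Rpl8, Rpl17, Rpl21, Rpl23a, Rpl29, Rpl30, Rpl32, Rpl36, Rplp1, Rps14, Rps20, Rps27a and Rps29. In the window at the start, 19, 21 and 11 of 59 members had a peak in ND, HFD and FAD (32.2%, 35.6% and 18.6%), beside 10.3%, 14.8% and 9.15% of all 16457 genes with an entry. In the window at the end the counts were 8, 13 and 6 (13.6%, 22.0% and 10.2%), beside 14.8%, 20.3% and 12.8%. The members' higher share therefore lay on the start side. Mitochondrial ribosomal protein genes, with promoters about as rich in CG, had a peak in the start window in 5, 6 and 6 of 69 cases.

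The promoter itself, taken as the 300 bp shown above, was without a peak in 55 of 59 members in each library. The 4 members with one (6.78%) stood beside 2.41% of all genes in ND, 3.17% in HFD and 1.97% in FAD. Without the 6 paralogs, 2 of 53 members (3.77%) had a promoter peak in each library, near the HFD share of all genes. The count was also 2 in each library with the 50% highest-scoring peaks and with peak midpoints in place of overlap. The share of all genes was not computed under those settings. Among the 8198 genes whose promoter had an observed to expected CG ratio of at least 0.6, the shares were 1.21%, 1.46% and 1.1%. None of the 69 mitochondrial ribosomal protein genes and 23, 27 and 23 of 36 germline genes had a promoter peak. In all, 5 members had a promoter peak in at least 1 library, and 54 had none.

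Rpl10l had the strongest and widest of these peaks. Its scores, on the scale of the peak lists where the lowest value is 50 and which is not stated further, were 296 in ND, 373 in HFD and 220.3 in FAD. The peaks spanned 1176, 1158 and 919 bp within chr12:66283640-66284815 and ran from -414 to 761 bp of the start in ND, so they covered the promoter and most of a record 1023 bp long. Rpl39l had scores of 112, 226 and 148 in ND, HFD and FAD at chr16:10169724-10170590, with widths of 641, 748 and 379 bp. Rpl22 had low scores of 84.7, 81.0 and 68.1 at chr4:152324152-152324582, with widths of 301, 431 and 287 bp. The table lists another Rpl22 start at position 152325726, whose nearest peaks lay 1218, 1144 and 1244 bp away and whose promoter had no peak. Rps16, which encodes a small-subunit protein that contacts tRNA, had a peak at chr7:28350545-28351187 with scores of 70.05, 57.2 and 74.6. That peak reached the promoter in ND and HFD, while in FAD it began 89 bp after the start. Rpl12, whose product sits at the base of the stalk, had a promoter peak in FAD alone, from 14 to 399 bp after the start (chr2:32961726-32962111, score 58.4), and neither other library had one there.

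Most of the next nearest peaks began just inside the gene, while an ND peak of Rpl27 ended 290 bp before the start. Rps26, which encodes a protein at the mRNA exit channel, had scores of 125, 91.3 and 104 at chr10:128625942-128626292, starting 233, 214 and 243 bp after the start. Rpl15, which encodes a protein deep in the large subunit, had scores of 201, 168 and 180.5 at chr14:18270173-18270558. Its peaks began 473, 428 and 433 bp after the start, so the position was nearly the same in all diets. Rps2, which encodes a protein at the mRNA entry channel, had scores of 57.8 and 62.3 in ND and HFD at chr17:24720234-24720785 and no peak there in FAD. Rpl28 had a weak ND peak at chr7:4793224-4793688 (score 53.1), 259 bp after the start.

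The surroundings of the start were read in zones of unequal width, so counts compare with the background and not between zones. Between -2000 and -501 bp, 12, 14 and 4 of 59 members had a peak in ND, HFD and FAD (20.3%, 23.7% and 6.78%), beside 6.78%, 10.3% and 5.99% of all genes and 6.68%, 10.1% and 5.68% of genes with a CG ratio of at least 0.6. The FAD share was thus close to the background, and the ND and HFD shares were above it. Between -500 and 499 bp the member counts were 9, 7 and 7 (15.3%, 11.9% and 11.9%), beside 4.27%, 5.91% and 3.55% of all genes. From 500 to 1999 bp they were 13, 15 and 11 (22.0%, 25.4% and 18.6%), beside 8.49%, 11.9% and 7.15%, so this zone stood above the background in all 3 libraries. With the lists held to equal length, the upstream counts were 11, 8 and 4 and those at the start 8, 5 and 7. Shares of all genes in these zones were not computed at equal length, so these counts have no background. The FAD list was the shortest of the 3, with 95501 peaks beside 101532 in ND and 135124 in HFD, and the part of list length in the upstream counts was not tested further.

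**Figure D2:**
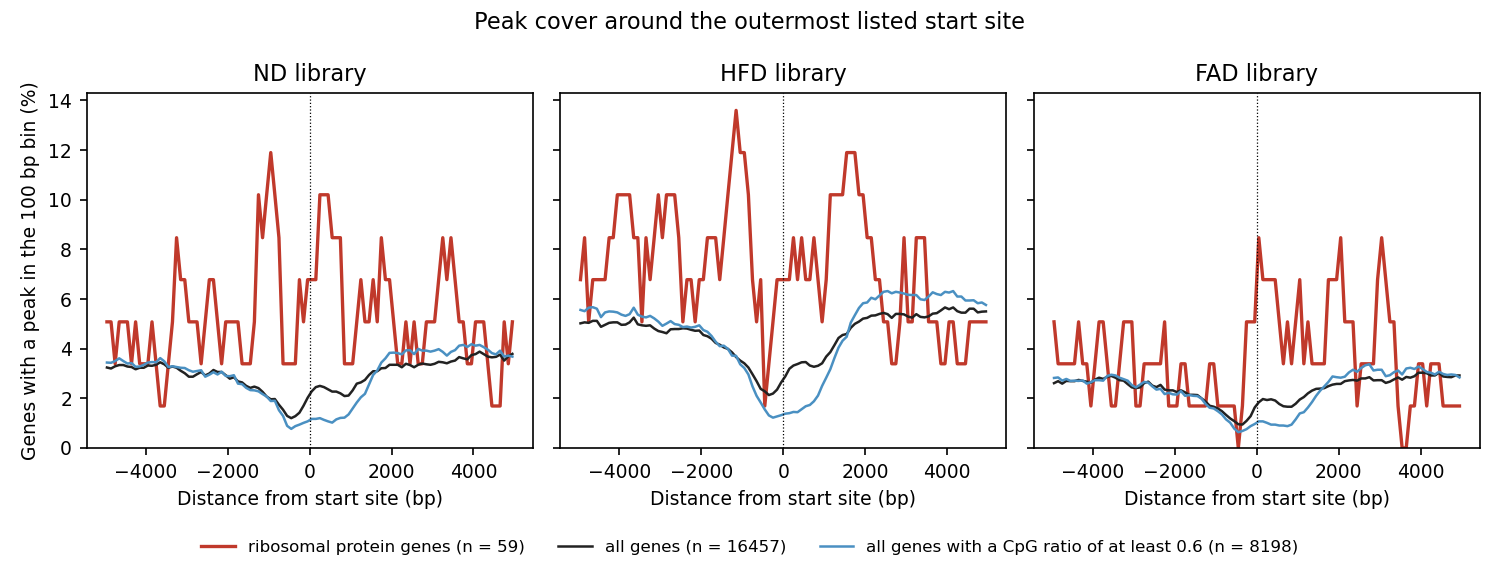
Percent of genes with a peak in each 100 bp bin (vertical axis) against distance from the outermost listed start (horizontal axis, -5000 to 5000 bp), 1 panel per library, for 59 ribosomal protein genes, all 16457 genes and the 8198 genes with a CpG ratio of at least 0.6. The lines of all genes and of CG-rich genes dip around the start. The member line moves in steps of 1 gene and is high near -1000 bp in ND and HFD, while in FAD 4 members have a peak between -2000 and -501 bp.

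The median distance from a member's start to the nearest peak was 2888 bp in ND, 2038 bp in HFD and 4384 bp in FAD, beside 7454, 5308 and 8217 bp for all genes. By the nearest peak of any library, Rpl27a lay farthest, with 20347, 19684 and 19754 bp in ND, HFD and FAD. Rps12, which encodes a small-subunit protein, followed with 16883, 13722 and 23151 bp, and Rpl14, a large-subunit gene, with 12887, 12595 and 12885 bp. Within single libraries other members lay farther, such as Rps27l in ND (24397 bp) and Rps21 in FAD (31315 bp). In all, 24 members had no peak at an end or in the record in any library. Among them were Rpl6, Rpl8, Rpl10a, Rpl13a, Rpl14, Rpl17, Rpl19, Rpl24, Rpl27a, Rpl32, Rpl35a, Rpl37, Rpl37a, Rpl38, Rplp1, Rplp2, Rps3, Rps12, Rps23, Rps25, Rps27a, Rps27l and Rpsa. These include the genes of both small stalk proteins, the ubiquitin fusion gene Rps27a, the laminin receptor gene Rpsa and the p53-responsive paralog Rps27l. The share of all genes without either kind of peak was not computed, so the count of 24 has no background. Taken apart, 45.6% of members had no peak at an end in any library, beside 64.4% of all genes. In the record, 50.6% of members had none, beside 29.0% of all genes, whose records are longer.

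The other 55 members carried 163 peaks, 56 in ND, 64 in HFD and 43 in FAD, and no peak was counted for more than 1 member. Overlapping peaks of different libraries joined into 80 regions, 48 touching a record and 32 outside it. Of these, 28 were in all 3 libraries, 26 in 2 and 26 in 1. Regions in all 3 had a median highest score of 173, and those of ND alone, HFD alone and FAD alone had 65.3, 72.6 and 69.6. The median score of a member peak was 95.3, 91.0 and 99.3, near the list medians of 101, 100 and 97.1. Member peaks were thus of ordinary strength. Most peaks of 200 or more belonged to regions found in every diet: 12 such regions were in all 3 libraries and 1, at Rpl7a, was in HFD alone. Regions were not joined in this way over all genes. The split by library and its link to score therefore have no background and cannot be read as a trait of the members.

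**Figure D3:**
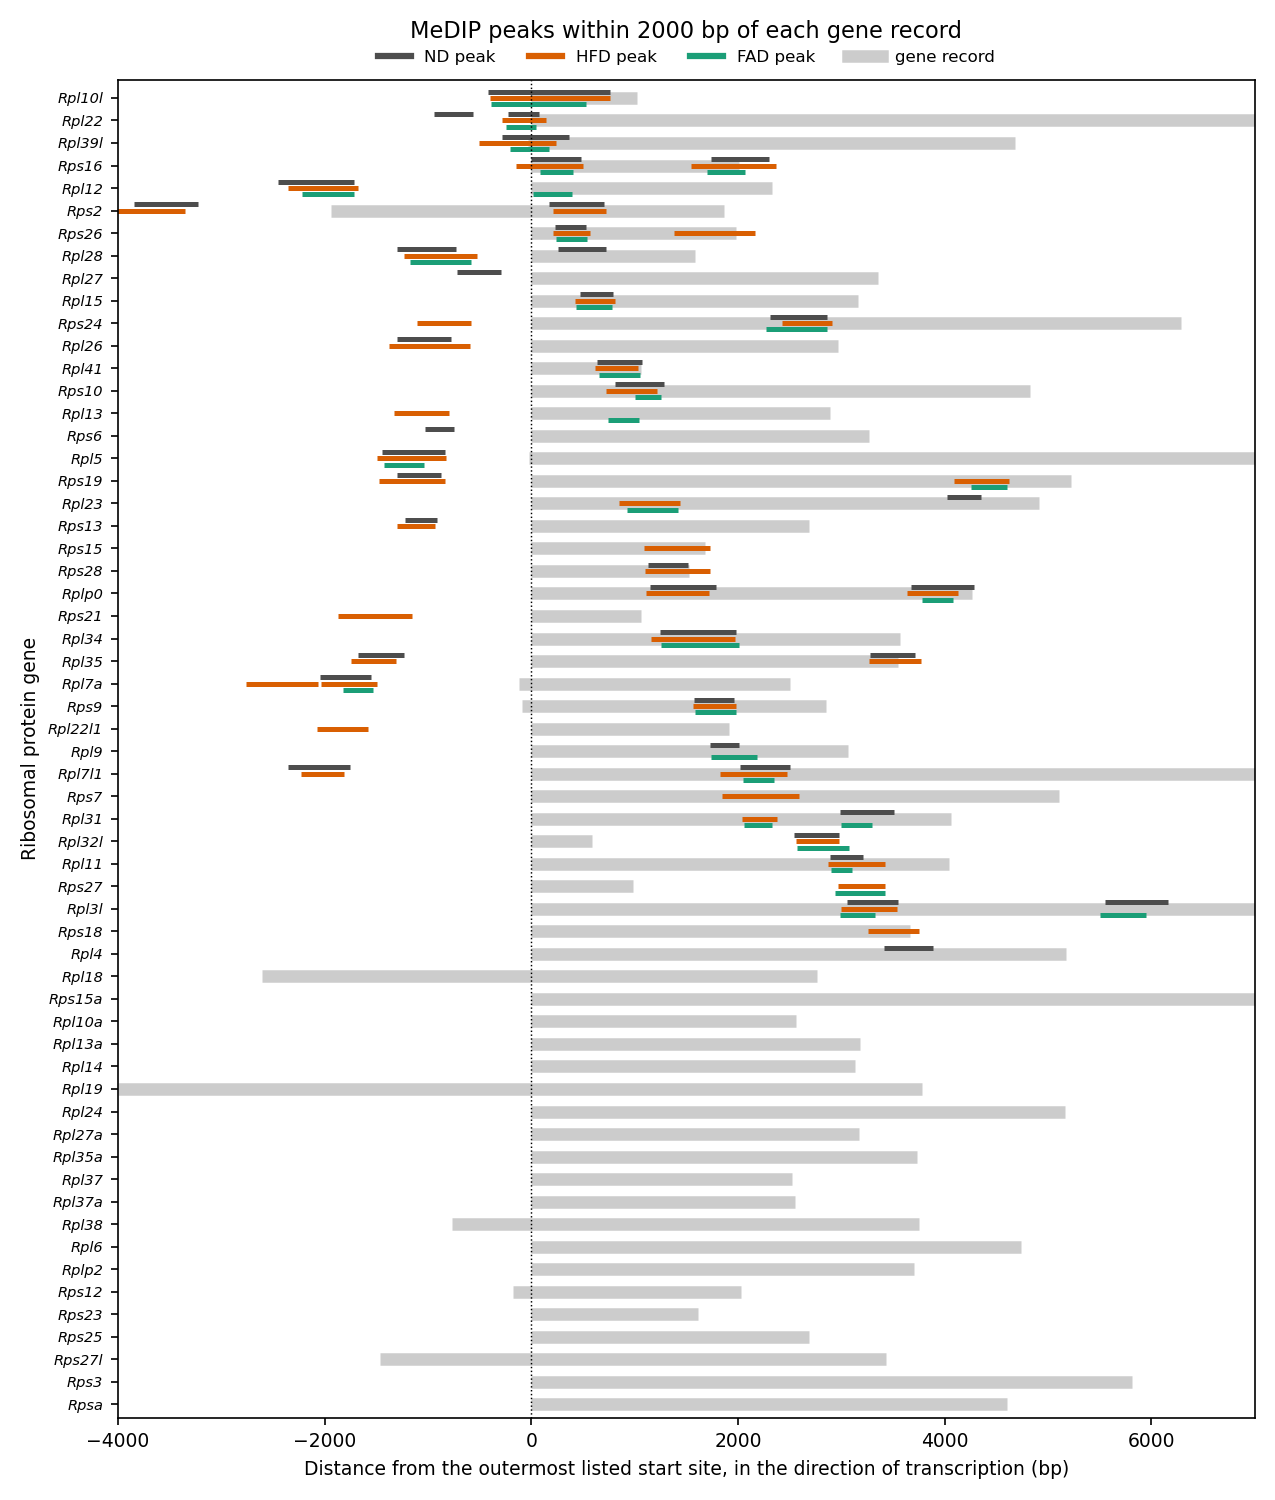
Peaks of the ND, HFD and FAD libraries (coloured lines) at 59 ribosomal protein genes, drawn against distance in bp from the outermost listed start (horizontal axis) with the gene record as a grey bar and genes ordered by their nearest peak. Lines near 0 are found for Rpl10l, Rpl22, Rpl39l, Rps16 and Rpl12, most other peaks lie upstream or inside the record, and peaks of Rpl18, Rps15a, Rpl22 and Rpl7l1 beyond the axis are not drawn.

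The strongest region at any member that was not over another gene lay beside Rps14, whose human counterpart lies in the segment lost in the 5q- syndrome. It lay outside the record at chr18:60778625-60779546, with scores of 409.6 in ND, 445 in HFD and 375 in FAD and widths of 863, 922 and 807 bp. All 3 libraries were alike here, and each score ranked above at least 95.4% of its list. The highest score of all, 482 in HFD, belonged to a region at chr10:20210986-20211518 beyond the end of Rpl32l, with 272 in ND and 235 in FAD. That region lies within the record of the neighbouring gene Map7, and in all 12 of the 80 regions touched the record of another protein-coding gene.

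Among large-subunit genes with a region upstream of the start, several were marked in all 3 libraries. Rpl28 had scores of 192, 290.04 and 229 at chr7:4791668-4792440, -1297 to -730 bp of the start in ND. Rpl5, whose product forms the 5S particle with Rpl11 and binds Mdm2, had scores of 91.2, 212 and 130 at chr5:107899040-107899705, with HFD highest. Rpl12 had 161, 301 and 166 at chr2:32959266-32960038, within the record of Lrsam1. Rpl18 had 139, 245 and 114 at chr7:45713136-45714031, within the record of Sphk2, more than 4000 bp before the listed start because its record begins earlier. Rpl7a had 104, 66.8 and 63.5 at chr2:26908760-26909315 and a separate HFD peak of 224 at chr2:26908049-26908748, both within the record of Med22.

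Other upstream regions of large-subunit genes were weak and not in every library. Rpl26, whose product lies near the exit of the peptide tunnel, had scores of 61.7 and 66.4 in ND and HFD at chr11:68900189-68900969. Rpl35, whose product helps dock the signal recognition particle, had 53.2 and 65.8 in ND and HFD at chr2:39006358-39006876. A further pair of Rpl35 peaks, 62.4 and 64.8, lay at its end (chr2:39001364-39001860), also in ND and HFD. Rpl22 had an ND peak of 69.1 at chr4:152323498-152323877, upstream of the promoter peak. Rpl27 had an ND peak of 55.8 at chr11:101441531-101441955, and Rpl13 an HFD peak of 60.03 at chr8:123101021-123101557. FAD had none of these regions.

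For large-subunit genes without a listed start, regions outside the record were also found. Rpl29 had scores of 132 and 116 in ND and HFD at chr9:106433407-106434185, within the record of Acy1. An FAD peak overlapped that region without reaching the Rpl29 window. Rpl3, whose product lies near the peptidyl transferase centre, had 92.3 and 61.0 in ND and HFD at chr15:80084502-80085318. Rpl30 had 83.0 and 109 in ND and HFD at chr15:34438895-34439251. Rpl21 had 116 and 68.2 in ND and HFD at chr5:146831739-146832348, while its only FAD peak, 61.4, lay within the record (chr5:146835558-146836078). Rpl23a, which like Rpl35 lies at the tunnel exit, had scores of 75.6 and 64.2 in HFD and FAD outside the record (chr11:78184264-78185105).

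Inside large-subunit records, several regions were shared by all diets. The record region of Rpl22 at chr4:152331974-152332619 had scores of 189, 254 and 271, well above those at its promoter. Rpl34 had 143, 218 and 165 at chr3:130728388-130729236. Rpl23a had 95.4, 135 and 176 at chr11:78182696-78183100. Rpl41, which encodes the smallest ribosomal protein, had 118, 165 and 68.4 at chr10:128548100-128548550. Rpl11, the partner of Rpl5, had 113, 80.6 and 131 at chr4:136049966-136050522, and Rpl36 had 69.5, 62.2 and 86.0 at chr17:56613794-56614486. The order of the libraries differed from gene to gene, with the highest score in HFD at Rpl34 and Rpl41 and in FAD at Rpl22, Rpl23a, Rpl11 and Rpl36, and scores compare between lists only if the lists share a scale.

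Other large-subunit record regions were in 1 or 2 libraries. Rpl31 had 92.3 and 131 in HFD and FAD at chr1:39369889-39370233, and 125 and 77.8 in ND and FAD at chr1:39370837-39371359. Rpl9 had 94.3 and 134 in ND and FAD at chr5:65389243-65389702, with no HFD peak there. Rpl23, which also binds Mdm2, had 116 and 88.9 in HFD and FAD at chr11:97781004-97781589 and an ND peak of 68.0 at chr11:97778084-97778420. Rpl7 had 63.8 and 75.0 in HFD and FAD at chr1:16101173-16101788. Further single-library regions were those of Rpl4 in ND (chr9:64176799-64177273, score 51.0), Rpl13 in FAD (chr8:123103091-123103393, score 77.8) and Rpl22 across its end in HFD (chr4:152334081-152334846, score 67.9). All 3 scores lay below the median of their lists.

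Among the paralogs, Rpl7l1, related to a yeast assembly factor of the large subunit, had the most regions. Its record region at chr17:46780156-46780825 had scores of 256, 191 and 128. An upstream region at chr17:46784412-46785012 had 117 and 123 in ND and HFD, and a region past the end at chr17:46771387-46771986 had 77.4 and 61.6 in the same libraries. Rpl3l, the striated-muscle paralog of Rpl3, had 137, 146 and 85.9 in its record at chr17:24730814-24731370, and 70.9 and 57.04 in ND and FAD at chr17:24733328-24733987. Rpl22l1 had an HFD peak of 71.9 at chr3:28803431-28803924 and none in ND or FAD. Rplp0, the stalk base gene often used as a reference transcript, had 59.0, 99.9 and 166 across its end at chr5:115563101-115563747, and 95.2 and 90.8 in ND and HFD inside its record at chr5:115560579-115561258.

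Among small-subunit genes, upstream regions were in ND, in HFD or in both, and in FAD at none of the members with a listed start. Rps6 had the highest of these, an ND peak of 146 at chr4:86858112-86858392, 281 bp wide and from -1025 to -745 bp of the start. Rps13 had 114 and 76.1 in ND and HFD at chr7:116335102-116335487. Rps19, the gene most often mutated in human Diamond-Blackfan anaemia, had 55.7 and 87.1 in ND and HFD at chr7:24883119-24883755. Rps2 had 109 and 116 in ND and HFD at chr17:24715987-24716839, within the record of Rnf151. That ND peak lay from -3839 to -3224 bp of the listed start, because the Rps2 record begins earlier. Rps21 had an HFD peak of 78.3 at chr2:180255514-180256223, and Rps24 an HFD peak of 53.2 at chr14:24489568-24490095.

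Small-subunit genes also had regions at the end or outside the record. The end of Rps16 had scores of 136, 122 and 169 at chr7:28352239-28353058. Rps27 had 153 and 99.3 in HFD and FAD at chr3:90210223-90210707, within the record of Nup210l. An ND peak overlapped that region without reaching the Rps27 window. Rps28, whose product lies near the mRNA exit channel, had 94.6 and 102 in ND and HFD at its end (chr17:33822833-33823461). In HFD alone, peaks lay across the ends of Rps15 (chr10:80293518-80294161, score 79.6), Rps18 (chr17:33951915-33952403, score 72.6) and Rps26 (chr10:128624338-128625126, score 84.8). In FAD alone, a peak lay at Rps29 (chr12:69159200-69159504, score 87.7).

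Deeper in small-subunit records, Rps9, whose product bears on decoding accuracy, had scores of 125, 197 and 124 at chr7:3705607-3706026. Rps24, another Diamond-Blackfan anaemia gene in humans, had 107, 87.4 and 87.2 at chr14:24492951-24493588. Rps10 had 81.6, 86.3 and 98.03 at chr17:27633957-27634516. These 3 regions were found in every diet. Rps15a had 94.3 and 106 in ND and HFD at chr7:118105832-118106436, and Rps19 had 74.1 and 63.3 in HFD and FAD at chr7:24888687-24889215. Peaks in HFD alone lay in Rps7 (chr12:28633364-28634112, score 99.5) and Rps20 (chr4:3834599-3835140, score 100.7).

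Over whole records, 28, 31 and 28 members had a peak in ND, HFD and FAD (35.4%, 39.2% and 35.4%), beside 61.7%, 68.4% and 59.3% of all genes. Short records hold fewer peaks, and among the genes no longer than the longest member the shares were 31.3%, 38.1% and 28.2%. Per length, member records held 0.113, 0.124 and 0.11 peaks per kb over 291469 bp, beside 0.0475, 0.0654 and 0.0437 per kb for all genes and 0.0819, 0.105 and 0.0733 per kb for the short genes. Peaks covered 5.1%, 6.03% and 3.98% of the members' record length, beside 4.41%, 6.7% and 3.43% for the short genes. Against the short genes the members' records were therefore not poor in peaks, although the HFD cover was lower. Of 2271 short genes with a CG ratio of at least 0.6, 42.4%, 50.7% and 38.9% had a record peak in ND, HFD and FAD. The 50 members with such a ratio had one in 20, 21 and 17 cases, a lower share in each library. The reading thus depends on the background, and peaks per kb were not computed for the CG-rich short genes. Processed pseudogenes of these genes are near-identical to their exons, and the handling of reads that match several places is unknown here, so record peaks are uncertain to that extent. Of 55 members with a pseudogene named after them, 26 (47.3%) had a record peak in at least 1 library, beside 13 of 24 (54.2%) without one. The part of such reads in the record peaks was not tested, and the annotation used holds no exons.

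Between the diets, 19 members (24.1%) were marked at an end in all 3 libraries and 36 (45.6%) in none, beside 15.5% and 64.4% of all genes. A further 11 members (13.9%) were marked in ND and HFD but not FAD, beside 5.0% of all genes, and 0 were marked in ND and FAD but not HFD, beside 0.6%. The comparison of HFD with ND asks what differs with dietary fat. In HFD and not in ND, 9 members were marked (11.4%), beside 11.0% of all genes, so the share was near the background. Among them were Rpl7, Rpl13, Rpl22l1, Rps15, Rps18, Rps21, Rps24 and Rps27. In ND and not in HFD, 2 members were marked, Rps6 and Rpl27 (2.53%), beside 2.71% of all genes. Equal-length lists gave 3 members (3.8%, beside 6.5%) on the HFD side and 7 (8.86%, beside 4.72%) on the ND side. The order of the member counts was thus turned, while over all genes the HFD side stayed the larger.

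A stricter count left out genes where the other library had any peak up to 5000 bp beyond a window. Rpl7 and Rpl22l1 remained on the HFD side (2.53%, beside 3.61% of all genes), with the nearest ND peaks 52252 and 9287 bp from the HFD peaks. Rps6 and Rpl27 both remained on the ND side (2.53%, beside 0.527%), with the nearest HFD peaks 10063 and 18972 bp away. At Rps6 the nearest FAD peak was 20256 bp away, so the ND peak stood alone. At 281 bp it was among the 10% narrowest ND peaks, which ended at 323 bp.

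The comparison of FAD with HFD asks what differs with folic acid on the same high-fat diet. In HFD and not in FAD, 18 members were marked (22.8%), beside 13.0% of all genes. Among them were Rpl3, Rpl7l1, Rpl13, Rpl21, Rpl22l1, Rpl26, Rpl29, Rpl30, Rpl35, Rps2, Rps13, Rps15, Rps18, Rps19, Rps21, Rps24 and Rps28. In the other direction 2 members were marked in FAD and not in HFD, among them Rps29 (2.53%), beside 2.06% of all genes. Equal-length lists gave 9 (11.4%, beside 7.39%) and 4 (5.06%, beside 4.11%). Under the stricter count, 7 remained on the HFD side (8.86%, beside 4.7%), namely Rpl3, Rpl22l1, Rps2, Rps13, Rps15, Rps21 and Rps28, and 1 on the FAD side (1.27%, beside 0.445%). The HFD peaks of these 7 had scores of at most 116, and the nearest FAD peaks lay between 10209 bp (Rps15) and 31044 bp (Rps21) away.

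The comparison of FAD with ND, which differ in both fat and folic acid, gave 13 members marked in ND and not in FAD (16.5%), beside 7.12% of all genes. These were Rpl3, Rpl7l1, Rpl21, Rpl26, Rpl27, Rpl29, Rpl30, Rpl35, Rps2, Rps6, Rps13, Rps19 and Rps28. In FAD and not in ND, 4 members were marked, among them Rpl7, Rps27 and Rps29 (5.06%), beside 4.39% of all genes. Equal-length lists again gave 13 (16.5%, beside 6.33%) and 4 (5.06%, beside 4.83%). The stricter count gave 6 (7.59%, beside 2.46%) and 2 (2.53%, beside 1.4%). The 3 comparisons share libraries, so they are not independent of each other.

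In the records, 7 members had a peak in HFD and not in ND (8.86%, beside 8.37% of all genes) and 4 in ND and not in HFD (5.06%, beside 1.68%). The 4 included Rpl4, Rpl9 and Rpl28. Between the high-fat libraries, 9 members had a record peak in HFD and not in FAD (11.4%, beside 10.5%) and 6 in FAD and not in HFD (7.59%, beside 1.35%). The 6 included Rpl9, Rpl12, Rpl13 and Rpl21, whose FAD peaks had scores from 58.4 to 134. FAD and ND differed by 6 members in each direction (7.59%), beside 3.95% of all genes in FAD and not in ND and 6.38% in ND and not in FAD. All genes have longer records, and 54.9% of them had a record peak in all 3 libraries, beside 25.3% of members. The shares of these record differences were not computed for short genes, so they cannot be read as a trait of the members.

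Member promoters were rich in CG. They held a median of 21 CG dinucleotides per 300 bp and a median observed to expected ratio of 0.877, beside 14 and 0.597 for all genes and 21 and 0.818 for mitochondrial ribosomal protein genes. A ratio of at least 0.6 was found in 50 of 59 members and in 49.8% of all genes. The lowest ratio, 0.0892, was that of the muscle paralog Rpl3l, which had no promoter peak. The 5 members with a promoter peak had ratios of 0.43 (Rpl22), 0.64 (Rpl10l), 0.75 (Rpl12), 0.84 (Rpl39l) and 0.86 (Rps16), all below the member median. Rpl27a and Rps6, printed above, had no promoter peak and ratios of 0.93 and 0.97.

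**Figure D4:**
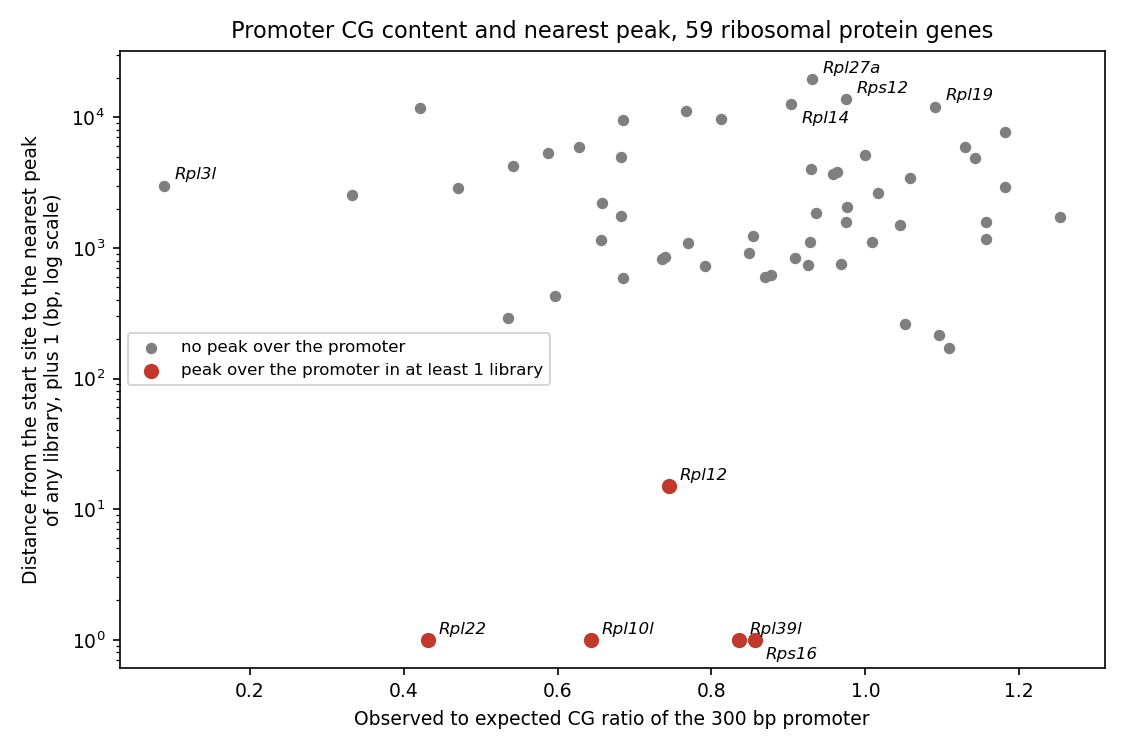
Distance from the outermost listed start to the nearest peak of any library, plus 1, in bp on a log axis (vertical) against the observed to expected CG ratio of the 300 bp promoter (horizontal), 1 point per gene for 59 ribosomal protein genes. Red points mark the 5 genes with a peak over the promoter in at least 1 library, and Rpl27a, at a ratio of 0.93, is the highest point at 19684 bp.

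Short motifs were counted in the same 300 bp promoters on both strands. The letters CCGGAA, the core bound by ETS factors, were present in 29 of 59 members (49.2%) and 19.6% of all promoters. GGGCGG, the core of the Sp1 motif, was present in 34 (57.6%) and 47.3%. AAGATGGC, which holds the core bound by YY1, was present in 6 (10.2%) and 3.21%, and TATAAA in 6 (10.2%) and 13.5%. A C at the listed start followed by 4 bases that are each C or T, read on the gene's strand alone, was present in 13 (22.0%) and 2.17%. No motif searched was common to all members, and a match is a description of letters, not of binding.

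The tissue of the libraries could be looked at only through methylation, which gives no level of expression. Of 6 adipocyte marker genes with a promoter entry, none had a promoter peak in ND or HFD and 1, Lep, had one in FAD. None of 4 epididymis markers and none of 4 leukocyte markers had a promoter peak. Over all genes, 2.41%, 3.17% and 1.97% had one in ND, HFD and FAD, so counts this small cannot check the tissue. At either gene end, 2, 3 and 2 of 8 adipocyte markers were marked. Epididymis markers were marked in 0, 2 and 0 of 6 cases and leukocyte markers in 1, 3 and 1 of 6. These stood beside 23.2%, 31.4% and 20.4% of all genes. The mix of cells in each library was not measured.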

How the data were processed

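MeDIP-seq of epididymal fat was analysed for 3 libraries, 1 per diet, grouped by the labels. The number of animals behind each library is not stated. Per the labels' protocols, DNA was purified on columns and made into Illumina libraries. The authors deposited 1 peak list per library with a score for each peak, and the submitters' processing notes name build mm10. The score's scale is not stated, so the deposited score served to describe and rank peaks within a list. Peak names carry the MACS prefix. Not given in the sources used here were the aligner, the caller's settings, version and control, sequencing depth, and the handling of duplicate or multiply matching reads. Depth is therefore unknown, and a missing peak means that nothing passed the caller's threshold.

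Gene records and the outermost listed start sites came from RefSeq tables of GRCm38.p6, the assembly of mm10. Peak starts were converted to 1-based positions and overlaps required 1 bp. The calls were checked against bedtools and were identical for 61995 gene and library pairs. Observed to expected CG is the CG count times the length over the product of C and G counts. With 1 library per diet no test was run. Members, lists and settings were chosen with earlier results of these data known. Members with a peak were named, with each region's position and the score in each library, except some members that count in the totals and are not reported here by name. Widths are given for the peaks the results turn on. The software was bedtools 2.31.1, matplotlib 3.10.9, scipy 1.17.1, pandas 2.3.3, numpy 2.4.6 and Python 3.11.15.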

Additional observations from a re-analysis of the deposited data

How the results depend on the processing

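Of 191 values recomputed under alternative settings, 126 were kept and 65 moved, where a count was kept within 1.5 times, a background share within its 95% binomial interval and a median only if equal. With the 50% of peaks with the highest scores, members marked at an end were 19, 20 and 14 in ND, HFD and FAD, record peaks 14, 15 and 15, regions 40 with 14 in all 3 libraries, promoter peaks 2, 2 and 2, start windows 12 (ND) and 10 (HFD), end windows 4 (ND) and 6 (HFD), upstream zones 6 (ND) and 5 (HFD), start zones 4, 3 and 4, and median distances 7543, 7538 and 9750 bp. Members marked at an end were then 24.1%, 25.3% and 17.7%, beside 11.9%, 17.3% and 10.7% of all genes. Differences were then 5 (HFD, not ND, 6.33% beside 7.14% of all genes) and 4 (ND, not HFD, 5.06% beside 1.73%). They were 8 (HFD, not FAD, 10.1% beside 7.95%) and 8 (ND, not FAD, 10.1% beside 3.84%). Equal-length lists gave 3, 7, 9 (HFD, not FAD) and 4 (FAD, not HFD), an HFD upstream zone of 8 and medians of 2986 (ND) and 2968 bp (HFD). Windows of 1000 bp on each side gave 5 (FAD, not HFD), 11 (HFD, not FAD) and 8 (ND, not FAD), and absence within 5000 bp gave 2 (HFD, not ND), 1, 7, 2 (FAD, not ND) and 6. Shares over all genes were not computed for the 1000 bp windows. By peak midpoint, end windows held 5 (ND) and 3 (FAD) and promoters 2, 2 and 2. Against short genes the background was 23.8% at gene ends in ND and 31.3%, 38.1% and 28.2% in records. Against genes with a CG ratio of at least 0.6 it was 8.65%, 12.5% and 7.61% in start windows and 1.21%, 1.46% and 1.1% over promoters. Without the paralogs, promoter peaks were 2, 2 and 2 and medians 2223 (HFD) and 5105 bp (FAD). With Rpl36al, Rps3a1 and Rps27rt added, medians were 2937, 2130.5 and 3989.5 bp. The cause of these shifts was not tested, beyond the fewer peaks, genes or bases that each setting keeps. Chosen after seeing the data were the CG ratio background, all alternatives for start and end windows, zones and promoters, those for the regions, and the median distances with genes added or paralogs left out. No paired analysis was possible because there was 1 library per diet. Depth is unknown, so absence of weak peaks near the score minimum of 50 cannot be told apart from shallow sequencing.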

Other observations

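Pseudogene records named after ribosomal proteins were often overlapped by a peak. Of 281 such autosomal records, 132 (47.0%) were overlapped in the ND list, 129 (45.9%) in the HFD list and 115 (40.9%) in the FAD list, beside 23.6%, 27.0% and 21.5% of all 9319 autosomal pseudogene records. They are shorter, with a median length of 539 bp beside 924 bp. A peak was present in at least 1 library at 145 records and in all 3 at 103. The highest scores were those of Rpl31-ps14 (chr1:66948530-66948990), with 479.8 in ND, 560.5 in HFD and 431 in FAD. Rps27a-ps3 (chr6:122456866-122457421) had 435, 557 and 389, while its parent gene Rps27a had no peak in any library.

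The 4 X-linked genes that match the symbol rule, Rpl10, Rpl36a, Rpl39 and Rps4x, had no peak at an end or in the record in any library. The autosomal paralogs of Rpl10 and Rpl39, Rpl10l and Rpl39l, had one over the promoter in all 3. The share of all X-linked genes with a peak was not computed, so the absence at these 4 X-linked genes has no background.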
